A study of Mus musculus with 9 samples.

Results

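The levels of 10 genes that stand for the identity and the T cell stimulating function of dendritic cells were measured in mouse macrophages after stimulation with interleukin 4 (IL-4). They are Itgax, Batf3, Irf8, Flt3, Zbtb46, Ccr7, Cd209a, Cd24a, Cd80 and Cd86. They were chosen by gene symbol, and all 10 were found among the 19505 genes of the array, with 1 probe set each. MHC class II genes were not among them. On the RefSeq annotation of GRCm38.p6 the costimulator genes share a chromosome, with Cd80 at chr16:38457430-38495958 and Cd86 at chr16:36568956-36666158. Irf8 (chr8:120736358-120756694) and Cd209a (chr8:3743395-3748984) also share one, far apart. Itgax lies at chr7:128129526-128150657, Batf3 at chr1:191098414-191108943, Flt3 at chr5:147330741-147400489, Zbtb46 at chr2:181371009-181493262, Ccr7 at chr11:99144199-99155077 and Cd24a at chr10:43579169-43584265.

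The cells were macrophages grown from the bone marrow of healthy wild-type C57BL/6 mice. Marrow was cultured for 7 days in 10% serum with M-CSF, the macrophage growth factor, at 10 ng/ml per the growth protocol and 20 ng/ml per the series text. Every group then received 20 ng/ml recombinant mouse IL-4 for 24 h, so no group without IL-4 enters any comparison. The 3 groups, with 3 arrays each, differed in lipocalin 2 (LCN2), a secreted protein that binds iron-carrying bacterial siderophores. The first received vehicle, the second LCN2 on day 7 together with IL-4 at a dose the labels do not give, and the third 150 ng/ml recombinant mouse LCN2 from day 0. The array titles number the arrays of each group 1, 2 and 3, and the labels do not say what the number stands for. Nor do they say whether the 3 arrays of a group are separate mice, separate cultures or repeats of 1 sample. The spread behind each p-value is therefore that of these arrays alone and may be technical.

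Dendritic cells take up antigen, travel to lymph nodes and present it to T cells. They share marrow precursors and many surface proteins with macrophages, and no single gene of the 10 is exclusive to them. FLT3 ligand drives their development, IRF8 and BATF3 are the transcription factors of the cross-presenting type 1 conventional dendritic cell (cDC1), and ZBTB46 marks the conventional lineage as a whole. CD80 and CD86 bind CD28 and CTLA-4 on T cells, and CCR7 guides mature dendritic cells along the chemokines CCL19 and CCL21.

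The promoters of Itgax and Batf3 are shown because these genes were the tested members with lower values under LCN2 in every same-number pair of both LCN2 comparisons. Each covers 250 bases before to 50 bases after a start site on the plus strand, as the RefSeq promoter table for GRCm38.p6 sets it, and positions are counted from that site. For Batf3 this site is the annotated start of the gene given above, and for Itgax it lies 24 bases inside the gene. Capitals mark the motifs searched for.
Itgax, chr7:128129300-128129599: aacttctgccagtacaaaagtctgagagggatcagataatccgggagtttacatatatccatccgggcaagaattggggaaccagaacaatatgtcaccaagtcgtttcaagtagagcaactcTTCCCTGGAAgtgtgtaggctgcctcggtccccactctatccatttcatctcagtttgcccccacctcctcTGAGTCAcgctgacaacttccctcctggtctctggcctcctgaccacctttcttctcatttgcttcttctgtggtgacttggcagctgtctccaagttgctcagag
Batf3, chr1:191098164-191098463: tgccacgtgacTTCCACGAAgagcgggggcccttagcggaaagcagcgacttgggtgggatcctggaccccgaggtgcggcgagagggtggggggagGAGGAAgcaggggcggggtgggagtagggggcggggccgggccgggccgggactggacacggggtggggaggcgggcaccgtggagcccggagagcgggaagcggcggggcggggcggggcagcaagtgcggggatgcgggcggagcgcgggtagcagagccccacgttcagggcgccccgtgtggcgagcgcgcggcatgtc
In the Itgax promoter the capitals are TTCCCTGGAA, with its first base at position -127 and of the form that STAT6 binds (TTC and GAA with 4 free bases between), and TGAGTCA at -56, of the AP-1 form TGANTCA. STAT6 is the transcription factor that IL-4 activates. In the Batf3 promoter they are TTCCACGAA at -239, of the interferon gamma-activated form TTCNNNGAA, and the PU.1 core GAGGAA at -153. PU.1 is a factor of the whole myeloid lineage, and BATF3 itself binds AP-1 and AP-1-IRF sites with JUN proteins.

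The sequence table held promoters of 7 of the 10 members, 8 promoters in all. Both strands were searched, and matches of different forms may overlap. Some of them belong to start sites inside the annotated gene. The window of Zbtb46 belongs to a site 68874 bases inside the gene and that of Cd80 to a site 1503 bases inside. Counted from these internal sites, Zbtb46 held the AP-1 match TGACTCA at -61 and Cd80 held TGATTCA at -42. With Itgax, 3 of the 7 genes carried an AP-1 match in these windows. Irf8 held 2 interferon gamma-activated matches, TTCTCGGAA at -171 and TTCAGAGAA at -153, in the promoter at its annotated start. Cd209a held, on the minus strand, the ETS-IRF form at -9 (GGAA and GAAA with 2 free bases between). Of 32851 mouse promoters of the same length, 7.8% held TGANTCA, 7.0% the STAT6 form, 8.3% TTCNNNGAA, 28.3% GAGGAA and 2.7% the ETS-IRF form. The interferon response form, GAAA repeated after 2 free bases, was in 3.4% of them and in none of the 8 promoters of members. The GC content was 50.0% for Itgax and 75.7% for Batf3, against a median of 52.7% over all promoters. These matches describe letters in a window and carry no measurement of binding.

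The arrays give log2 expression levels, so a difference of 1 is a doubling. A probe set was called dim when its mean over the 9 arrays lay under 5.66, the median of all probe-set means, and 10042 genes lay above and were tested. The 6 members that passed were Itgax, Batf3, Irf8, Ccr7, Cd24a and Cd80. Ccr7 with a mean of 6.26 and Cd24a with 6.45 lay just inside the limit. Cd209a with 5.61 and Zbtb46 with 5.45 lay just outside it, and Cd86 with 4.43 and Flt3 with 4.16 lay far below. Among all genes on these arrays, the mean level of Itgax stood at the 98th percentile and that of Cd80 at the 92.4th. Irf8 stood at percentile 71, Batf3 at 61.8, Cd24a at 57.5, Ccr7 at 55.3, Cd209a at 48.1, Zbtb46 at 46.1, Cd86 at 31.5 and Flt3 at 26.1. These ranks are positions on the array and depend on each probe set, so they do not order the transcripts themselves.

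Checked against their label, these cultures held few of the listed lineage markers of conventional dendritic cells above the limit. Of 9 measured markers of conventional dendritic cells, 2 lay above the limit, Ccr7 (mean 6.26) and Cadm1 (mean 9.60). Flt3, Zbtb46, Itgae, Kmo, Btla, Xcr1 (mean 3.28) and Clec9a (mean 3.35) were dim, the last of these being the receptor by which cDC1 recognise dead cells. Of 6 plasmacytoid dendritic cell markers, Cox6a2 alone lay above the limit, and Siglech had a mean of 4.30. Broader lists of genes that dendritic cells use were mostly above it, with 9 of 12 cDC2 genes, 11 of 16 genes of mature migratory cells and 19 of 22 transcription factors, against 4 of 12 cDC1 genes. Of all 19505 genes, 10042 lay above this limit. All 8 measured macrophage markers lay above it. The members that were bright, Itgax and Cd80, are genes that macrophages transcribe too, so the list is described below by gene and not as a population of dendritic cells. In bulk RNA, fewer cells of a type and less RNA per cell cannot be told apart.

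The arrays had medians between 5.60 and 5.69. In every group the array numbered 1 stood apart from those numbered 2 and 3, and each group held 1 array of each number. Markers of other cells moved with the number. The mean level of 7 neutrophil markers was 6.34 to 7.28 on the arrays numbered 1, 7.84 to 8.40 on those numbered 2 and 7.88 to 8.18 on those numbered 3. The mean of 7 proliferation genes was 7.61 to 8.36, 8.60 to 8.94 and 8.85 to 8.99 in the same order. That of 8 macrophage markers was 10.34 to 10.48, 10.14 to 10.25 and 10.17 to 10.18. The markers of a list did not all move together. Number 1 minus number 2 was 1.36 for Cd14 and 0.74 for Mertk, but -0.95 for Fcgr1 and -0.04 for Csf1r. Among the neutrophil markers it was -1.74 for S100a9 but 0.18 for Mmp8. Members are therefore given for each array by number.

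**Figure D1:**
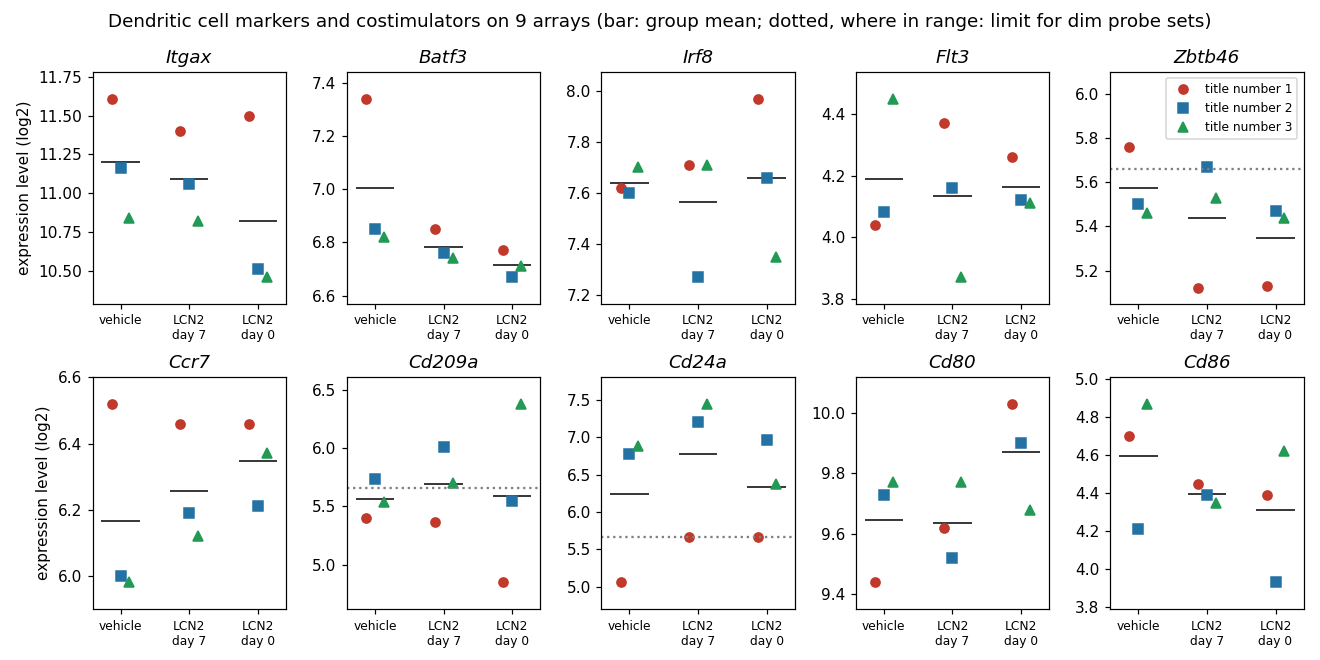
Log2 expression level of each member (vertical axes, each with its own range) on the 9 arrays in the 3 groups, with the title number as colour and shape, the group mean as a bar and the limit for dim probe sets as a dotted line where it falls in range. The Itgax value of the array numbered 1 is the highest of each group, and that of Cd24a the lowest.

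LCN2 given on day 7 with IL-4 asks what the protein did to cells that were already macrophages. No member passed the test. By limma 0 of 10042 genes passed (0%), among them 0 of the 6 tested members. Before adjustment, 70 genes and 0 members had a p under 0.05. LCN2 given from day 0 asks what it did while the cells were differentiating as well. Here too limma called 0 genes (0%) and 0 of 6 members, with 142 genes and 0 members at an unadjusted p under 0.05. The comparison of the 2 LCN2 groups gave 0 calls (0%) and 177 genes at an unadjusted p under 0.05, and the F test over the 3 groups gave 0 calls (0%) and 97. The members' adjusted p was 1 against vehicle on day 7, 0.999 for the tested members from day 0, and 1 in the F test (limma). The vehicle arrays are shared by both LCN2 comparisons, so agreement between them is not separate evidence. In these fits, which held no term for the title number, the 95% interval of each of the 10 members covered 0 in all 3 comparisons. With the title number as a block, 1 tested member on day 7 and 2 from day 0 had an unadjusted p under 0.05 (limma). None passed after adjustment.

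**Figure D2:**
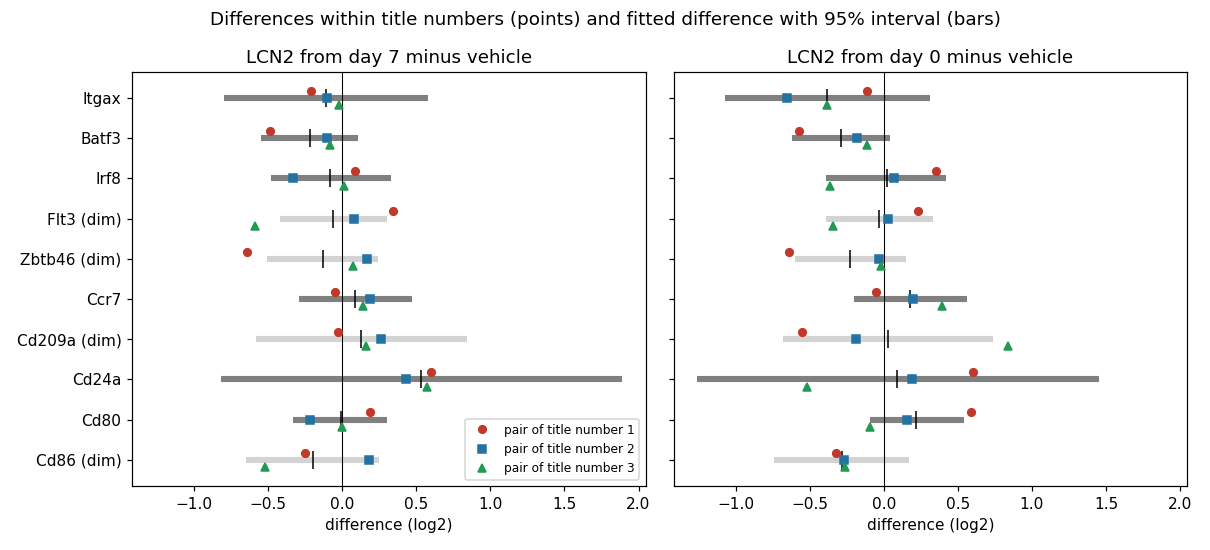
Difference from vehicle (horizontal axis, log2) of each member with LCN2 from day 7 (left) and from day 0 (right), as the difference within each title number (points) and the fitted difference (tick) with its 95% interval (bar, pale for dim members). All intervals, from the fit without the title number, cover 0. The day 0 points of Itgax, Batf3, Zbtb46 and Cd86 lie below 0.

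Itgax encodes CD11c, the alpha chain of a beta2 integrin that binds complement fragment iC3b, and is the surface protein most often used to gate dendritic cells. Its log2 level on arrays 1, 2 and 3 was 11.61, 11.16 and 10.84 with vehicle, 11.40, 11.06 and 10.82 with LCN2 from day 7, and 11.50, 10.51 and 10.46 with LCN2 from day 0. The array numbered 1 was the highest of each group, and the groups overlapped. The group means were 11.20 ± 0.39, 11.09 ± 0.29 and 10.82 ± 0.59 (SD, n = 3 each). LCN2 from day 0 differed from vehicle by -0.38 ± 0.305 (SE, 95% interval -1.07 to 0.31), a fold of 0.768, and every same-number pair was below 0, at -0.11, -0.65 and -0.38. LCN2 from day 7 differed by -0.11 ± 0.305 (-0.80 to 0.58), with pairs at -0.21, -0.10 and -0.02. The 2 LCN2 groups differed from each other by -0.27 ± 0.305 (-0.96 to 0.42), with pairs of mixed sign. With the title number as a block, the SE of the day 0 difference was 0.13, with an unadjusted p of 0.0189 and an adjusted p of 0.96 (limma). None of these differences passed the test in either fit. Without the vehicle array numbered 1 the day 0 difference was -0.17, and without the day 0 array numbered 1 it was -0.72.

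Batf3 encodes the AP-1 family factor without which mice lack cDC1. Its level was 7.34, 6.85 and 6.82 with vehicle, 6.85, 6.76 and 6.74 with LCN2 from day 7, and 6.77, 6.67 and 6.71 with LCN2 from day 0. Every day 0 array lay below every vehicle array, and the vehicle array numbered 1 stood above the other 8 arrays. Such a separation downward was found for 345 of the genes tested (3.44%) and for 1 of the 6 tested members. The means were 7.00 ± 0.29, 6.78 ± 0.06 and 6.72 ± 0.05. The day 0 difference was -0.29 ± 0.145 (-0.62 to 0.04), a fold of 0.819, with pairs at -0.57, -0.18 and -0.11. On day 7 it was -0.22 ± 0.145 (-0.55 to 0.11), with pairs at -0.49, -0.10 and -0.08. In both comparisons the pair of arrays numbered 1 gave the largest difference of the 3. Without the vehicle array numbered 1 the differences were -0.12 from day 0 and -0.05 on day 7, and neither passed the test with or without it.

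Irf8 encodes the factor that cDC1, plasmacytoid cells and monocytes need during their development. It read 7.62, 7.60 and 7.70 with vehicle, 7.71, 7.27 and 7.71 with LCN2 from day 7, and 7.97, 7.66 and 7.35 with LCN2 from day 0. The 3 vehicle arrays lay close together, whereas the LCN2 arrays scattered on both sides of them. The means were 7.64 ± 0.06, 7.56 ± 0.26 and 7.66 ± 0.31. The differences from vehicle were -0.08 ± 0.18 (-0.48 to 0.33) on day 7 and 0.02 ± 0.18 (-0.39 to 0.42) from day 0, with pairs of both signs.

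Zbtb46 and Flt3, the other developmental genes, were dim, and their values come from a fit without the limit. Zbtb46 read 5.76, 5.50 and 5.46 with vehicle, 5.12, 5.67 and 5.53 with LCN2 from day 7, and 5.13, 5.47 and 5.44 with LCN2 from day 0, with 2 of 9 arrays above the limit. The vehicle array numbered 1 was the highest and the LCN2 arrays numbered 1 the lowest, and the groups overlapped. Its day 0 difference was -0.23 ± 0.169 (-0.60 to 0.15), made up of a pair at -0.64 and pairs at -0.03 and -0.02. On day 7 it was -0.13 ± 0.169 (-0.51 to 0.24), with pairs at -0.64, 0.17 and 0.07. Flt3, the receptor tyrosine kinase of dendritic cell precursors, lay between 3.87 and 4.45 on the 9 arrays. Its differences were -0.06 ± 0.161 (-0.42 to 0.30) on day 7 and -0.03 ± 0.161 (-0.39 to 0.33) from day 0. At such levels an array separates signal from background poorly, so these intervals may not hold the size of a change in transcript.

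Ccr7, the lymph node homing receptor, rises with dendritic cell maturation, as CD80 and CD86 do, and lay a little above the limit here. Its level was 6.52, 6.00 and 5.98 with vehicle, 6.46, 6.19 and 6.12 with LCN2 from day 7, and 6.46, 6.21 and 6.37 with LCN2 from day 0. The arrays numbered 1 were the highest of each group, and the groups overlapped. The differences from vehicle were 0.09 ± 0.169 (-0.29 to 0.47) on day 7 and 0.18 ± 0.169 (-0.20 to 0.56) from day 0. In both, the pair numbered 1 was at -0.05 and the other pairs lay above 0.

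Cd209a encodes the mouse lectin closest in use as a marker to human DC-SIGN and is found on monocyte-derived dendritic cells. It was dim by 0.05, and 4 of 9 arrays lay above the limit. It read 5.40, 5.74 and 5.54 with vehicle, 5.37, 6.01 and 5.70 with LCN2 from day 7, and 4.85, 5.55 and 6.38 with LCN2 from day 0. The day 0 group held both the lowest and the highest of the 9 values, with an SD of 0.77 against 0.17 for vehicle. The differences were 0.13 ± 0.321 (-0.58 to 0.84) and 0.03 ± 0.321 (-0.68 to 0.74), and they carry the widest intervals of the list after Cd24a.

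Cd24a encodes heat-stable antigen, a small glycosylphosphatidylinositol-anchored protein that marks cDC1 in tissues and is also carried by neutrophils, erythroid precursors and immature lymphocytes. Its level was 5.06, 6.78 and 6.88 with vehicle, 5.66, 7.21 and 7.45 with LCN2 from day 7, and 5.66, 6.97 and 6.37 with LCN2 from day 0. The array numbered 1 was the lowest of each group, well below the other two. The means were 6.24 ± 1.02, 6.77 ± 0.97 and 6.33 ± 0.65, and the groups overlapped. With LCN2 from day 7 each pair was above 0, at 0.60, 0.43 and 0.57, and the fitted difference was 0.53 ± 0.6 (-0.82 to 1.89). From day 0 the pairs were 0.60, 0.19 and -0.52, and the difference was 0.09 ± 0.6 (-1.26 to 1.45). Between the LCN2 groups it was -0.44 ± 0.6 (-1.79 to 0.91). With the title number as a block the SE of the day 7 difference was 0.205, with an unadjusted p of 0.0305 and an adjusted p of 0.999 (limma), so the call did not change.

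The costimulators Cd80 and Cd86 encode B7-1 and B7-2. Cd80 was bright, at 9.44, 9.73 and 9.77 with vehicle, 9.62, 9.52 and 9.77 with LCN2 from day 7, and 10.03, 9.90 and 9.68 with LCN2 from day 0. The day 0 arrays numbered 1 and 2 were the highest of the 9, and the third lay inside the vehicle range. The day 0 mean was 9.87 ± 0.18 against 9.65 ± 0.18, a difference of 0.22 ± 0.14 (-0.09 to 0.54) and a fold of 1.17. Its pairs were 0.59, 0.16 and -0.09. On day 7 the difference was -0.01 ± 0.14 (-0.33 to 0.30), and the LCN2 groups differed from each other by 0.23 ± 0.14 (-0.08 to 0.55).

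Cd86 was dim, at 4.70, 4.21 and 4.87 with vehicle, 4.45, 4.39 and 4.35 with LCN2 from day 7, and 4.39, 3.93 and 4.62 with LCN2 from day 0. All 9 arrays lay below the limit, and the groups overlapped. The day 0 pairs were close to each other, at -0.32, -0.27 and -0.26, with a fitted difference of -0.28 ± 0.204 (-0.74 to 0.17). On day 7 the difference was -0.20 ± 0.204 (-0.65 to 0.25), with pairs of both signs. Cd80 and Cd86 thus had day 0 differences of opposite sign, neither of which passed.

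By the same-number pairs, 2 of the 6 tested members were below 0 in all 3 pairs on day 7, Itgax and Batf3, where 10.3% of tested genes were. Cd24a was above 0 in all 3, as were 11.4% of tested genes. From day 0, Itgax and Batf3 were again below 0 in all 3, where 15.4% of tested genes were, and so were the dim Zbtb46 and Cd86. The median difference of the 6 tested members was -0.044 on day 7 and 0.055 from day 0, beside 0.003 and -0.015 over all tested genes. Of the 6, 4 lay below 0 on day 7 and 2 from day 0, where 49.1% and 54.8% of all tested genes did.

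Most of the variation of Cd24a, Itgax and Ccr7 followed the title number and not the group. Of the sum of squares over the 9 arrays, the number took 82.7% for Cd24a, 74.4% for Itgax and 67.9% for Ccr7, and the group took 9.2%, 16.5% and 14.8%. For the median tested gene the number took 48.6% and the group 10.6%. Cd80 was the member with the least, at 1% for the number and 39.7% for the group. Batf3 was divided more evenly, at 32.8% and 43.2%. Irf8, Flt3, Zbtb46 and Cd80 varied mostly in neither way, with 65.5%, 91.2%, 60.1% and 59.2% left over.

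In a limma fit with group and title number, an F test over the numbers called 2307 of 10042 genes (23.0%), among them 2 of the 6 tested members, Itgax and Cd24a. The arrays numbered 1 differed from those numbered 2 in 2311 genes (23.0%), of which 767 were higher and 1544 lower, and from those numbered 3 in 2868 genes (28.6%), of which 912 were higher and 1956 lower. Between the arrays numbered 2 and 3 limma called 0 genes (0%), with 310 at an unadjusted p under 0.05. Of the tested members, 3 were called for number 1 against 2 and 2 for number 1 against 3.

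Itgax averaged 11.51 ± 0.10 on the arrays numbered 1, 10.91 ± 0.35 on those numbered 2 and 10.71 ± 0.21 on those numbered 3 (SD, n = 3 each). The lowest array numbered 1, at 11.40, lay above the highest of the other 6, at 11.16. Number 1 exceeded number 2 by 0.60 ± 0.13 (SE, adjusted p = 0.0139 by limma) and number 3 by 0.80 ± 0.13 (adjusted p = 0.00377 by limma). The first of these calls was lost without the vehicle array numbered 1 (0.64, adjusted p = 0.05, by limma), without the day 0 array numbered 1 (0.44, adjusted p = 0.0526) and without the day 0 array numbered 2 (0.46, adjusted p = 0.0573). The call against number 3 passed in each of 16 alternatives.

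Cd24a went the other way. It averaged 5.46 ± 0.35 on the arrays numbered 1, 6.98 ± 0.22 on those numbered 2 and 6.90 ± 0.54 on those numbered 3, and the arrays numbered 1 lay below the other 6. Number 1 was lower than number 2 by -1.52 ± 0.205 (a fold of 0.348, limma adjusted p = 0.00219) and than number 3 by -1.44 ± 0.205 (a fold of 0.369, limma adjusted p = 0.0022). With 5.06, 5.66 and 5.66, the arrays numbered 1 had a mean under the dim limit of 5.66. Cd24a thus passed the dim filter only through the arrays numbered 2 and 3. Near that limit an array separates signal from background poorly, so these folds may not hold the size of the difference in transcript. Both calls passed in each of 16 alternatives. Beside them, the summed level of the 7 neutrophil markers above the limit, of 9 measured, was 44.4 to 51.0 on the arrays numbered 1, 54.9 to 58.8 on those numbered 2 and 55.2 to 57.3 on those numbered 3. By group it was 44.4 to 55.5 with vehicle, 51.0 to 57.0 with LCN2 from day 7 and 47.8 to 58.8 from day 0. Their part in the Cd24a result was not tested, and neither was that of the proliferation genes given above. No B cell marker of 6 and no T or NK cell marker of 6 lay above the limit, and 1 of 4 erythroid markers did.

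Ccr7 averaged 6.48 ± 0.03 on the arrays numbered 1, 6.13 ± 0.11 on those numbered 2 and 6.16 ± 0.20 on those numbered 3, and the 3 arrays numbered 1 were the highest of the 9. Number 1 exceeded number 2 by 0.35 ± 0.107 (limma adjusted p = 0.0492) and number 3 by 0.32 ± 0.107, which did not pass (limma adjusted p = 0.0544). The call lay close to the threshold and held in 6 of 16 alternatives. It was lost on leaving out any 1 array except the day 0 array numbered 3, with differences of 0.25 to 0.43 over these. The F test did not call Ccr7 (limma adjusted p = 0.0728).

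The remaining tested members were not called by number. Batf3 differed by 0.23 between numbers 1 and 2 (limma adjusted p = 0.183), but with array weights it was called against number 2 (0.31, adjusted p = 0.0417) and number 3 (0.32, adjusted p = 0.0366). Array weights were the 1 alternative of 16 that called it. Without the vehicle array numbered 1, Batf3 differed by 0.09 from number 2 and by 0.09 from number 3, and neither passed. At equal weights the difference between numbers 1 and 2 was 0.26 for Irf8 (limma adjusted p = 0.271) and -0.02 for Cd80 (limma adjusted p = 0.941). Cd80 averaged 9.70 ± 0.30, 9.72 ± 0.19 and 9.74 ± 0.05 on numbers 1, 2 and 3. None of the dim members was called, among which Cd209a had the largest differences, -0.56 and -0.67 for number 1 against 2 and 3.

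**Figure D3:**
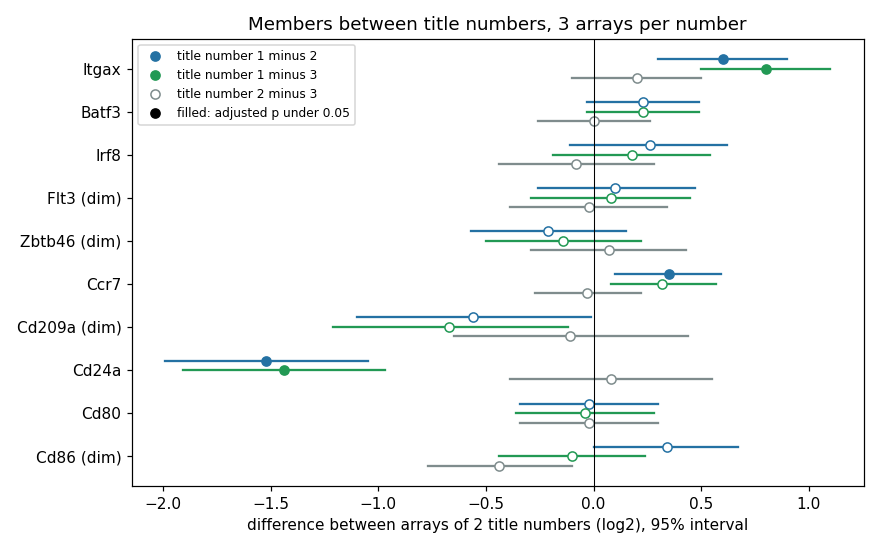
Difference between the arrays of a pair of title numbers (horizontal axis, log2, with 95% interval) for each member, from the fit with group and number, with filled points where the adjusted p was under 0.05. Itgax lies at 0.60 and 0.80 and Cd24a at -1.52 and -1.44 for number 1 against 2 and 3, and the differences of number 2 from 3 are open points.

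**Figure D4:**
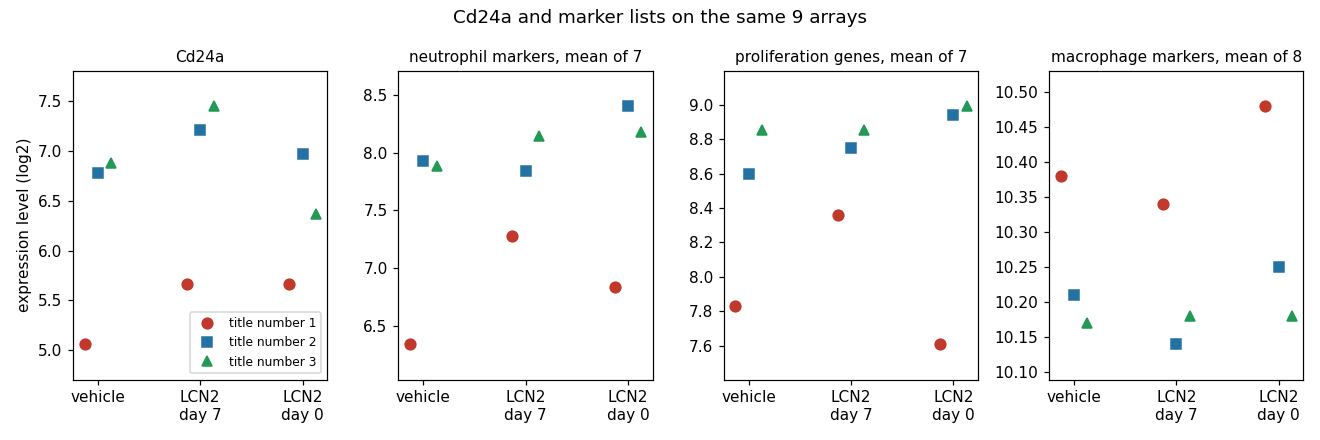
Log2 level of Cd24a (left panel) and mean log2 level of 7 neutrophil markers, 7 proliferation genes and 8 macrophage markers (other panels, each with its own range) on the same 9 arrays in the 3 groups, with the title number as colour and shape. The 3 arrays numbered 1 have the lowest Cd24a values, 5.06 to 5.66, and the lowest neutrophil marker means, 6.34 to 7.28.

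The genes most like each tested member were named by the Pearson correlation over the 9 arrays of levels less their title number mean, as a description. Itgax was closest to Tmem268 (r = 0.988) and to Jund (0.986), which encodes an AP-1 protein. Batf3 was closest to Zfp410 (0.985) and Tmem176a (0.975), whose day 0 difference from vehicle was -0.66. Irf8 was closest to Wars2 (0.993) and Rcbtb2 (0.986), Ccr7 to Ube4a (0.971) and Bysl (0.958), Cd24a to Txnl4a (0.968) and Rcbtb1 (0.96), and Cd80 to Rcor3 (0.995) and Calcrl (0.979). Each is the highest or next highest of the coefficients over all tested genes, rests on 9 arrays and carries no test. Taking off the mean of each title number also leaves fewer independent values than arrays.

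The genes the members work with were gathered in 11 companion lists of 155 genes, of which 143 were measured, 55 were dim and 88 were tested. No list had a member called in any group comparison (0 of 88). Of the 88 genes, 60 (68.2%) lay below 0 on day 7 and 56 (63.6%) from day 0, with medians of -0.035 and -0.036. Over all tested genes 49.1% and 54.8% did, with medians of 0.003 and -0.015. The counts by list below are to be read beside these shares. At an unadjusted p under 0.05 (limma) there were 0 on day 7 and 2 from day 0, Batf and Ccl17. Among all 10042 tested genes there were 70 and 142.

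Batf encodes the family member closest to BATF3. It read 7.57, 7.25 and 7.41 with vehicle, 7.46, 6.99 and 7.18 with LCN2 from day 7, and 7.14, 7.04 and 7.02 with LCN2 from day 0. Its day 0 arrays lay below the vehicle arrays, as they did for 3.44% of all tested genes. Its day 0 difference was -0.34 ± 0.144 (unadjusted p = 0.0417, adjusted p = 0.999 by limma), and its day 7 difference was -0.20. Among the 19 tested transcription factors of dendritic cells, 12 lay below 0 from day 0, with a median of -0.03. Irf4, the factor of type 2 conventional dendritic cells and of IL-4-activated macrophages, differed by -0.48 ± 0.317 and ranged from 6.74 to 7.86 on the day 0 arrays against 7.60 to 8.20 with vehicle. Among 7 IRF genes other than Irf8, 6 lay below 0, with a median of -0.10.

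Of 11 tested genes of mature migratory dendritic cells, 8 lay below 0 from day 0, with a median of -0.14. Ccl17, a chemokine ligand of CCR4 that IL-4 induces, read 5.99, 5.90 and 6.47 with vehicle and 5.60, 5.75 and 5.83 with LCN2 from day 0. Here too the day 0 arrays lay below the vehicle arrays, beside 3.44% of all tested genes. The difference was -0.39 ± 0.169 (unadjusted p = 0.0443, adjusted p = 0.999 by limma), beside -0.36 on day 7. Among the 4 tested cDC1 genes 2 lay below 0, and Naaa, an acid amidase enriched in cDC1, had the largest difference at -0.41 ± 0.188. It read 8.30, 9.05 and 8.99 with LCN2 from day 0 against 9.15, 9.14 and 9.28 with vehicle, which is the same separation. Among 9 cDC2 genes, 5 lay below 0 (median -0.03), and among 3 plasmacytoid genes, 1 did, with Tcf4 at 0.10.

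No gene of the receptor, ligand, integrin and lectin lists passed between groups. All 7 tested growth factor receptors lay below 0 from day 0, by 0.13 at most, with Ltbr at -0.13. The 12 tested costimulatory and coinhibitory ligands had a median of -0.04, with 8 below 0 and Icam1 at -0.17. The largest difference there was that of Icosl, the ICOS ligand gene, at 0.32 from day 0 and 0.51 on day 7. Of 5 integrin genes 3 lay below 0, and Itgb2, which encodes the beta chain that pairs with CD11c, was at -0.17 where Itgax was at -0.38, and Itga4 was at -0.25. The 9 C-type lectins had a median of 0.05, with Clec4e at 0.27, and Clec2d had the largest difference at -0.67 from day 0 and -0.32 on day 7. The 7 chemokine receptors had a median of -0.12, with Cxcr3 at 0.11. Icosl, Itga4 and Clec2d were picked out here after their values were seen. On day 7 the list medians were -0.02 for receptors, -0.01 for ligands, -0.01 for integrins, -0.05 for lectins and -0.08 for chemokine receptors.

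The title number called 38 of the 88 companion genes by the F test (43.2%, beside 23.0% of all tested genes), and the lists differed in direction. The lists were chosen when earlier results had already shown the arrays numbered 1 to stand apart. These shares are therefore no test of dendritic cell genes as a set. In the sentences that follow, a gene called is one that passed the F test, and the value in parentheses is its log2 difference of number 1 minus number 2. That difference itself passed for 34 of the 38, and not for Ccl22, Bcl6, Cebpa and Irf5. It held in all 16 alternatives for 20 of the 34, and the difference from number 3 held in all 16 for 26 of the 37 genes where it passed. Among those least often called were Etv6, in 8 and 10 of 16, Lair1, in 11 and 7, and Relb, in 9 and 12. In the maturation list 8 of 11 were called. Values above 0 were those of Socs2 (1.37), Cd83 (0.95), Anxa3 (0.58), Relb (0.54), Ccl5 (0.48) and Cd63 (0.44), and values below 0 those of Samsn1 (-0.65) and of Ccl22 (-0.43), which differed by -0.77 against number 3. Of the receptors, Il4ra (1.15), the IL-4 receptor chain, Il3ra (0.67) and Csf2rb (0.46) were called and were higher. Among costimulatory ligands 3 of 12 were called, with Cd274 (0.72), the PD-L1 gene, higher and Icosl (-0.76) and Cd40 (-0.48) lower. Cd80 differed by -0.02 between the same arrays.

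Among the integrin genes, Itgal (-0.82) and Itga4 (-0.57) were called and were lower, where Itgax was higher. Against number 3, Itgal differed by -0.27, which did not pass (limma adjusted p = 0.232). Of 9 lectins, 5 were called and higher, Clec2d (1.32), Clec4n (1.27), Clec4d (0.77), Clec4a3 (0.51) and Clec4a1 (0.50), while the measured Cd209 relatives were dim. Ccrl2 (1.51) and Ccr1 (1.36) were higher with Ccr7. Ccr2 (-2.39), the receptor of inflammatory monocytes, and Cxcr2 (-0.74), a neutrophil receptor, were lower, as Cd24a was. Of the other monocyte markers above the limit, Ly6c2 (-1.51) and Plac8 (-0.78) were lower but Fn1 (1.86) was higher. Of the IRF genes Irf7 (-1.63), Irf1 (-0.85) and Irf9 (-0.68) were lower and Irf5 (0.20, and 0.59 against number 3) was called too, while Irf8 differed by 0.26 and was not called. The called transcription factors beside Relb were Cebpb (0.66), Myc (0.49), Bcl6 (0.43), Etv6 (0.35), Cebpa (0.18) and Klf4 (-0.56). The remaining calls were Esam (0.65), Lair1 (-0.47) and Cox6a2 (-0.92), and 0 of 4 cDC1 genes were called by the F test.

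**Figure D5:**
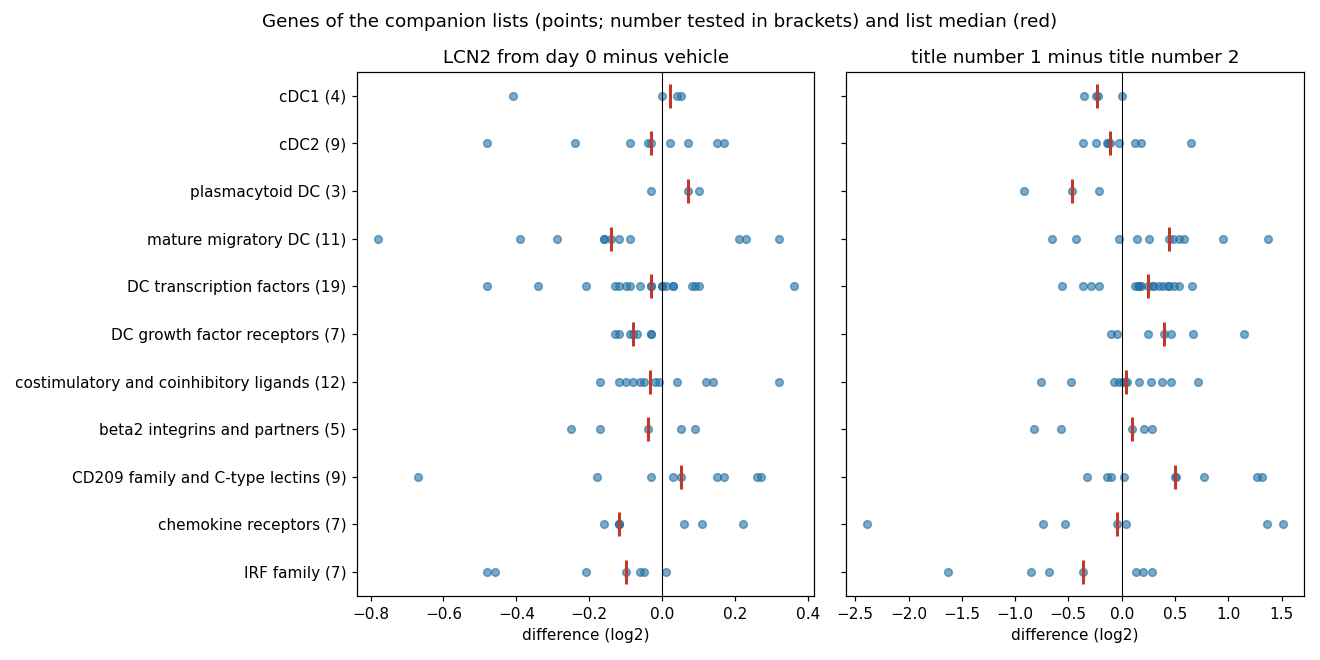
Difference of each tested companion gene (horizontal axes, log2) by list, for LCN2 from day 0 against vehicle (left) and title number 1 against 2 (right). List medians of the left panel lie between -0.14 and 0.07, and the right panel reaches from -2.39 (Ccr2) to 1.51 (Ccrl2).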

How the data were processed

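Log2 expression levels of 22203 probe sets on 9 arrays were used as the authors deposited them, with 0 missing values. The package oligo and the RMA method are named, without versions, per the submitters' processing notes. Of the probe sets 19572 carried 1 gene symbol, 0 several and 2631 none, and all 19572 matched the GRCm38.p6 RefSeq annotation by Entrez identifier. For the 55 genes with several probe sets, the one with the highest mean was kept. Genes with a mean under 5.66 were left out as dim, and 10042 were tested. For the 4 dim members, values come from a fit of all genes.

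The group fit used limma 3.58.1 (R 4.3.3), all 9 arrays, a mean for each group and moderated variances. Title numbers were compared in a fit with group and number. Benjamini-Hochberg adjustment ran over the whole set of tested genes, at 0.05. The fits were tested on simulated data whose noise held no title number effect. That test therefore does not show what the group fit can call at the spread of these arrays. Precision is limited by the number of arrays, since arrays carry no counts.

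The members, the 11 companion lists and the cell type markers were chosen with earlier results of these data known. All members are named. From each companion list, the genes called by title number are named, and the gene with the smallest p from day 0 against vehicle. Deviations of same-number arrays from their group means correlated at 0.16 to 0.82, above 0.1 in 9 of 9 pairs, so the number from the titles was taken to pair the arrays. Arrays numbered 2 and 3 of different groups also correlated, at 0.20 to 0.69. The check therefore sets number 1 apart but does not show that the arrays numbered 2 and 3 pair by number. The alternatives were a replicate block, no dim filter, further normalization, median centring, a variance trend, array weights, mean probe sets, pairs of groups alone, and leaving out arrays.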

Additional observations from a re-analysis of the deposited data

How the results depend on the processing

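The counts of genes called between groups stayed at 0 under each alternative run, and no member was called between groups in any of them (lowest limma adjusted p 0.358, Itgax from day 0). The title number was used as a replicate block on the assumption that same-number arrays pair. That fit left each of the 3 group comparisons at 0 calls. It raised the genes at an unadjusted p under 0.05 (limma) from 70 to 259, from 142 to 497 and from 177 to 539. In that fit the day 0 difference of Itgax had an SE of 0.13 (unadjusted p = 0.0189, limma adjusted p = 0.96) and that of Batf3 an SE of 0.113 (unadjusted p = 0.0339, limma adjusted p = 0.96). The day 0 differences kept their sign for Itgax (-0.72 to -0.17), Batf3 (-0.38 to -0.12), Cd86 (-0.48 to -0.09), Cd80 (0.04 to 0.38) and Ccr7 (0.09 to 0.35), as did on day 7 that of Batf3 (-0.31 to -0.05) and between the LCN2 groups that of Cd24a (-1 to -0.10). On day 7 Cd86 ran from -0.39 to 0, the latter with array weights.

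Signs turned only for values that had not passed, and the cause was not tested. With array weights the day 0 differences of Irf8, Cd24a and Cxcr3 were -0.03, -0.12 and -0.01. Without the arrays numbered 1, Zbtb46 on day 7 was 0.12, and Irf8 and Cd24a from day 0 were -0.15 and -0.16. Cd80 between numbers 1 and 2 was 0.06 after quantile normalization and 0.07 after median centring, and between numbers 1 and 3 it was 0.04 and 0.07. Leaving out 1 array at a time, with or without the replicate block, gave on day 7 -0.29 to 0.10 for Itgax, -0.21 to 0.07 for Irf8, -0.22 to 0.15 for Flt3, -0.26 to 0.10 for Zbtb46, -0.01 to 0.26 for Ccr7, -0.08 to 0.32 for Cd209a, -0.06 to 1.09 for Cd24a and -0.15 to 0.08 for Cd80. From day 0 it gave -0.14 to 0.23 for Irf8, -0.19 to 0.18 for Flt3, -0.37 to 0.40 for Cd209a, -0.50 to 0.43 for Cd24a, -0.01 to 0.17 for Tcf4 and -0.17 to 0.35 for Cxcr3. Between numbers it gave -0.15 to 0.12 (1 minus 2) and -0.20 to 0.10 (1 minus 3) for Cd80, and -0.03 to 0.32 (1 minus 3) for Irf8.

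The title number F test called 2307 genes, 4199 with array weights, and 785 to 2611 with 1 array left out. It called 785 without the vehicle array numbered 1, 963 without the day 0 array numbered 1, 1495 without the vehicle array numbered 2 and 1427 without the vehicle array numbered 3. Flt3 and Cd86 lay below the dim limit on each array, and Zbtb46 and Cd209a on most.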
